A study of Mus musculus with 12 samples.

Results

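The genes described here mark and run the inhibitory interneurons of the forebrain. They are Gad1, Gad2, Slc32a1, Reln, Sst, Npy, Vip, Pvalb and Calb2, 9 genes in all. CpG sites were taken as members where they lay in a gene or up to 2000 bp upstream of it (GENCODE vM21 basic, mm10) and had at least 10 reads in at least 6 of the 12 libraries. This gave 946 of the 2156659 sites that met the same read rule anywhere in the genome. A site is the cytosine of a CpG on 1 strand, and all 946 were such a cytosine in the mm10 sequence. At 504 of them all 12 libraries had at least 10 reads, as against 980547 sites in the whole genome.

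The data were reduced representation bisulfite sequencing (RRBS) libraries of 12 mouse brains, 1 library an animal. RRBS cuts DNA at CCGG, so that reads gather where CpGs are dense, and bisulfite turns unmethylated cytosines into bases read as T. The 4 wild-type (Wt) animals were 3 females and 1 animal labelled male. The 8 Tg2576 (Tg) animals were 4 females and 4 males, all animals were 11 months old, and the tissue of each was hippocampus and cortex mixed. Tg2576 mice carry human APP with the Swedish familial mutation as a transgene, under a prion promoter that is active in many cell types. The tissue holds neurons and glia together, so that each level is an average over cells. Fewer interneurons and a change within them cannot be told apart in such tissue. Coverage summed over CpG cytosines came to 33619981 to 131446104 a library, where a read is counted at each CpG it spans, and the median was 23 to 70 reads at the 504 sites. The library labelled Wt male had a mean X level of 19.9%, near the 20.7% to 23.0% of the libraries labelled female and not the 5.50% to 5.67% of the Tg males. Its label of sex was therefore not borne out, and it is called the library labelled Wt male throughout.

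Interneurons release GABA. Gad1 and Gad2 code for the glutamate decarboxylases that make it, and Slc32a1 for the transporter that loads it into vesicles. Reln codes for reelin, a secreted protein that some cortical interneurons make in the adult. Sst, Npy and Vip code for neuropeptides, and Pvalb and Calb2 for the calcium-binding proteins parvalbumin and calretinin, and these serve as markers of interneuron classes. CpG-dense starts of genes are mostly unmethylated in all tissues, whether or not the gene is in use there, while CpGs inside genes are often methylated.

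Pooled over the 9 genes, most sites near a start were close to unmethylated and most sites far from the starts were methylated. Exceptions near a start were the 4 Vip sites, which averaged 11.4%, and the 1 covered site at the outer Pvalb start, at 71.9%. Within 1000 bp of an annotated start lay 521 of the 946 sites, with a median level of 0.992%, and 96.9% of them were below 5%. Of these 521 sites, 267 lay in 1 group at the Reln start. The covered sites nearest the Sst start lay 282 bp downstream of it. Beyond 5000 bp lay 145 sites, with a median of 81.2%, and 51.0% of them were at 80% or above. Most of these were Reln sites, and none lay in Slc32a1, Sst, Npy or Vip. In the other genes, 8 Gad1 intron sites averaged 6.33%, 19 Calb2 sites 21.0% and 11 Pvalb sites 42.1%. The Gad2 groups, the Gad1 coding sites and the last UTR of Calb2 averaged 65.5% or more. In the whole set of sites, 90.2% of those within 1000 bp of any start were below 5%. Beyond 1000 bp of their own starts, the members' 425 sites had a median of 8.96% with 40.9% below 5%. All sites beyond 1000 bp of every start had a median of 59.7% with 21.1% below 5%. These sets were not matched for distance, and the members beyond 5000 bp lay above that 59.7%, at 81.2%. The members therefore cannot be called lower than the genome farther out. RRBS reached 602 of the 7057 CpGs in the 9 windows, or 8.53%, from 30.7% in Slc32a1 to 5.45% in Reln. The values below speak for those CpGs.

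The bases just upstream of the starts show what the assay could see. Each is the 250 bases before a RefSeq start (GRCm38.p6, which is mm10), 5′ to 3′ on the strand of the gene, with CpGs covered in at least 6 libraries in capitals. Reln is shown because it held the most sites, Pvalb because its starts differed in level, Npy for a start covered in part, and Sst for a stretch that RRBS missed.

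Reln, minus strand, chr5:22344706-22344955: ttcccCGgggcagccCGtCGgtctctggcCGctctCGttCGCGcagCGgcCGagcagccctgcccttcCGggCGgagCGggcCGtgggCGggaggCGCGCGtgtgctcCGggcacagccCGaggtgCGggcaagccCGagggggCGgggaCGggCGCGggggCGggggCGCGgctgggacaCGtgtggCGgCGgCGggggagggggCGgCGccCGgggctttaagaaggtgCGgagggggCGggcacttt

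Npy, plus strand, chr6:49822460-49822709: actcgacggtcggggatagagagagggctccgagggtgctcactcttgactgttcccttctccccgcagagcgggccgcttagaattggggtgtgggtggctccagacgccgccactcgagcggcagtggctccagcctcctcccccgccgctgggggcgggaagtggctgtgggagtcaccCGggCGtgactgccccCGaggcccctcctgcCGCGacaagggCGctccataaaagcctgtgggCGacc

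Pvalb, outer start, minus strand, chr15:78206401-78206650: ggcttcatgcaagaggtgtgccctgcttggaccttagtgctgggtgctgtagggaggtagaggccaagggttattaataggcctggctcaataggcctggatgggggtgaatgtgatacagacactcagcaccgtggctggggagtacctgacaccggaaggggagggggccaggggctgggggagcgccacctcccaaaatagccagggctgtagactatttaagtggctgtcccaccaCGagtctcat

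Pvalb, inner start, minus strand, chr15:78204238-78204487: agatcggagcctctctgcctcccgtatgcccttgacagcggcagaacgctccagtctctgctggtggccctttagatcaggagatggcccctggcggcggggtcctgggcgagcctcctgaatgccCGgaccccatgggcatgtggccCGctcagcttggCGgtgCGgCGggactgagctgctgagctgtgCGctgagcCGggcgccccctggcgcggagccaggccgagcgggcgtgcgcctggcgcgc

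Sst, minus strand, chr16:23890845-23891094: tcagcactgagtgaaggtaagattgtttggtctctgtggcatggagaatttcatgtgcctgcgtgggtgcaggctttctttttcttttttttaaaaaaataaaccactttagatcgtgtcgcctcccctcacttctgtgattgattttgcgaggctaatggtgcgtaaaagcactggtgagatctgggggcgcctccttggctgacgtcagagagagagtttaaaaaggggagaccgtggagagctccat

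All 37 CpGs of the Reln stretch were covered, on 56 sites, at a mean level of 0.522% (0% to 3.19%). In Npy 7 of 21 CpGs were covered, all within the stretch nearest the start, at 0.558%. In Pvalb the outer stretch had 4 CpGs, of which 1 was covered, at 71.9%, and the inner stretch had 23, of which 7 were covered, at 0.538%. None of the 8 CpGs of the Sst stretch was covered. It held the cyclic AMP response element TGACGTCA, beginning 48 bases before the RefSeq start. The factor CREB is known to bind this element, whose centre is a CpG. That RefSeq start lies inside the GENCODE record of Sst, which begins at chr16:23890958 and sets the Sst distances given below. A match of TGACGTCA was present in 1.79% of the 32851 RefSeq promoter windows of 300 bases and in 1 of the 9 windows of these genes. Its shorter form TGACG, which the longer motif contains, was present on either strand in 20.8% of all windows and in 3 of the 9. CCGG was present in 52.8% and in 7 of the 9. Matches are letters in a window and no evidence of binding. RefSeq windows matched 8 of the 9 genes, Pvalb with 2 windows, and Calb2 had none in the table used.

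The starts differed in how dense in CpG they were. Within 500 bp of the outermost start, the ratio of observed to expected CpGs was 1.01 in Reln, above that of 98.5% of 21755 protein-coding genes, whose median was 0.576. It was 0.678 in Gad1, 0.635 in Gad2, 0.760 in Slc32a1, 0.626 in Npy, 0.577 in Sst and 0.526 in Calb2. It was lowest at the outer start of Pvalb (0.157) and at Vip (0.287). The inner start of Pvalb had 0.516.

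**Figure D1:**
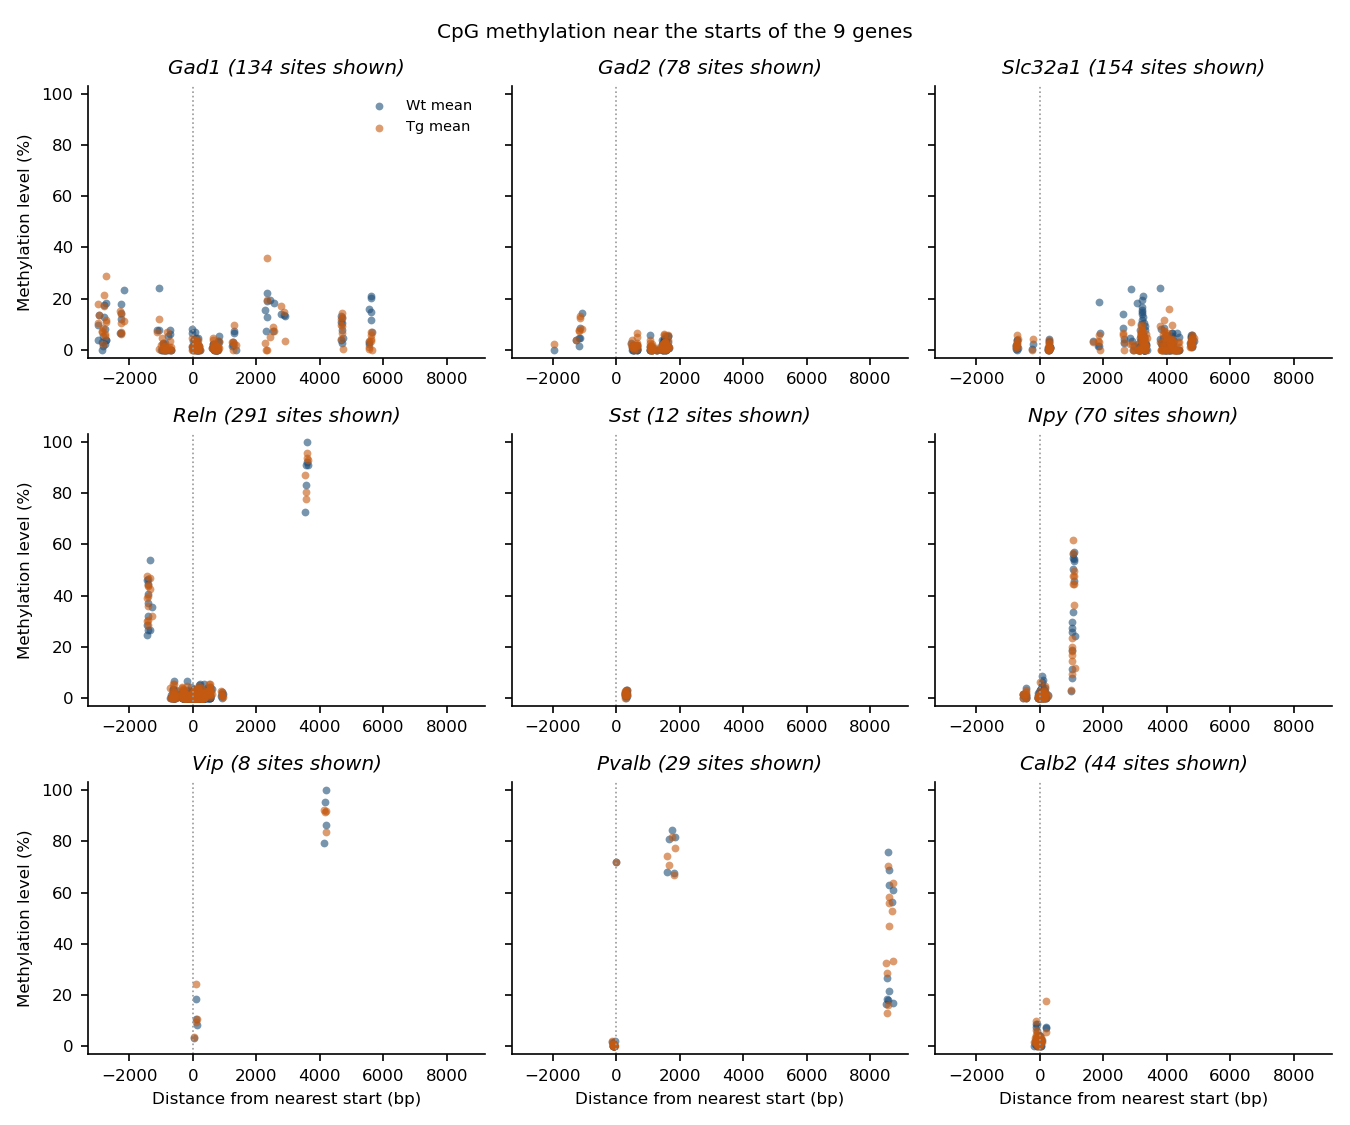
Methylation level in percent of each site against its distance in bp from the nearest annotated start, for the 9 genes. Blue points are the mean over Wt animals and orange points the mean over Tg animals. Sites close to the start sit near 0 in all genes except Vip and the outer start of Pvalb, while levels are higher farther into Npy, Reln, Vip and Pvalb.

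Among the genes of GABA synthesis and transport, low methylation reached far beyond the start. Gad1 (ENSMUSG00000070880.10, plus strand, chr2:70553072-70602014) had 137 sites. From 5 bp upstream to 194 bp downstream of a start, 34 sites averaged 1.39%. Farther out it was higher in part. The gene record of Gad1 begins upstream of all its basic transcripts, so that its outermost sites lie inside the record, yet over 2000 bp before the nearest start. Of these, 14 sites at chr2:70559051-70559319 averaged 10.4% and 6 sites at chr2:70559749-70559881 averaged 11.7%. In an intron, 8 sites at chr2:70567563-70567632 averaged 8.56%. Coding sequence 31805 to 31830 bp into the gene was methylated at 93.8% (3 sites). Gad2 (ENSMUSG00000026787.3, plus strand, chr2:22622205-22693874) had 16 sites from 475 to 652 bp and 55 from 1048 to 1645 bp downstream of its start, which averaged 1.69% and 1.61%. Upstream, 6 sites at chr2:22620922-22621109 averaged 7.97%, and 3 groups of intron sites 37368 bp or more downstream averaged 65.5% to 81.9%. Slc32a1 (ENSMUSG00000037771.11, plus strand, chr2:158610767-158615748) is a short gene and stayed low throughout. None of its 154 sites exceeded 16.7%, and its last 16 sites, in the UTR 4738 to 4845 bp downstream of the start, averaged 3.21%.

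Reln (ENSMUSG00000042453.14, minus strand, chr5:21884454-22344702) is the longest of the 9 genes, with a window of 462249 bp, and showed the sharpest contrast. At its start, 267 sites at chr5:22344093-22345405 averaged 0.929% with a highest site of 5.91%. Upstream, 12 sites at chr5:22345991-22346133 averaged 38.3%, and 3543 bp downstream, 6 intron sites averaged 88.2%. The island of low methylation thus lay between methylated flanks. Near the start, 6 intron sites at chr5:22343739-22343789 were also low, at 1.38%. Farther into the gene the groups of sites, in coding exons as in introns, averaged 64.2% or more, with the exception of 3 intron groups. These averaged 38.4% at chr5:22281390-22281450, 42.3% at chr5:22128830-22128895 and 55.4% at chr5:22182564-22182668.

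**Figure D2:**
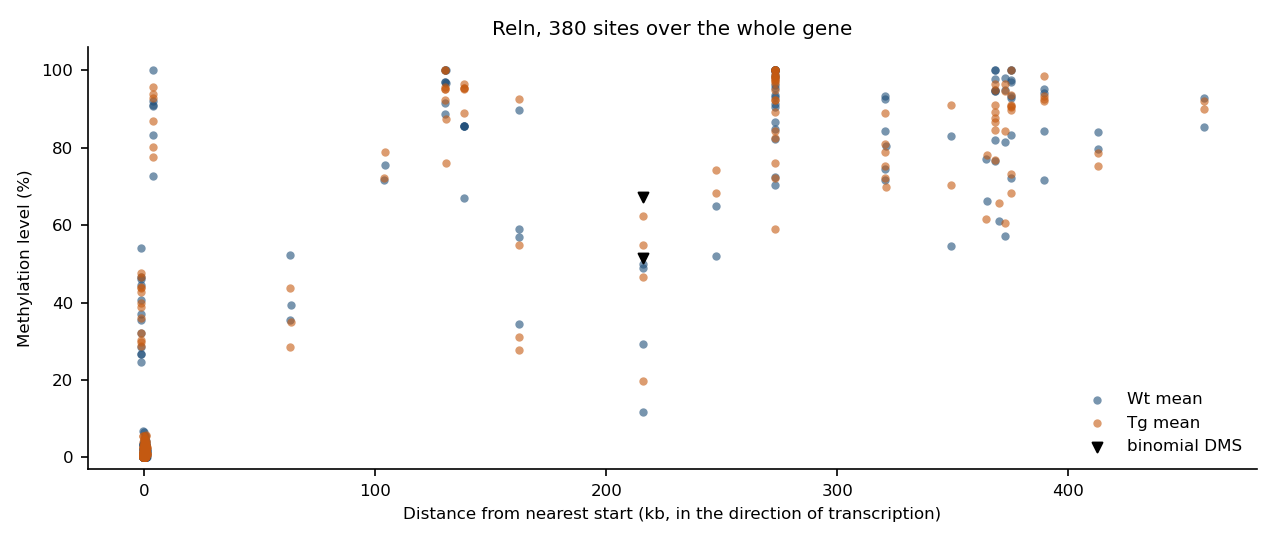
Methylation level in percent of the 380 Reln sites against distance from the nearest start in kb, in the direction of transcription. Blue points are Wt means, orange points Tg means, and the 2 black triangles mark sites called by the binomial model, both in 1 intron. Sites at the start lie near 0 and most sites in the gene above 60%.

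Of the neuropeptide genes, Sst (ENSMUSG00000004366.4, minus strand, chr16:23889573-23890958) had 12 sites, all in coding sequence 282 to 343 bp downstream of the start, and these averaged 1.77%. Npy (ENSMUSG00000029819.6, plus strand, chr6:49822710-49829507) was low at its start, with 46 sites at 1.27%. About 1 kb downstream, in a coding exon and the intron next to it, 16 sites at chr6:49823704-49823817 averaged 32.6% and ranged from 3.04% to 59.4%, so that neighbouring CpGs differed widely. Vip (ENSMUSG00000019772.5, plus strand, chr10:5639218-5647617) had only 8 sites. The 4 in the UTR 51 to 118 bp downstream of the start averaged 11.4%, and the 4 in an intron 4148 to 4183 bp downstream averaged 90.0%.

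Of the calcium-binding protein genes, Pvalb (ENSMUSG00000005716.16, minus strand, chr15:78191114-78206400) has an outer and an inner annotated start. The 12 sites 50 to 124 bp upstream of the inner start averaged 0.538%. The single site 9 bp upstream of the outer start had 71.9%. The 5 sites at chr15:78202389-78202639 averaged 75.3%, and 11 intron sites at chr15:78195514-78195754 averaged 42.1%. Calb2 (ENSMUSG00000003657.9, minus strand, chr8:110137502-110168210) had 44 sites around its start at 2.78%. In mid-gene 19 sites at chr8:110152447-110152930 averaged 21.0%, and 8 sites in the last UTR, at chr8:110137645-110137733, averaged 90.6%.

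The order of the promoter levels was taken over all 12 animals. A promoter level is the mean over the sites within 1000 bp of a start that had at least 10 reads in all 12 libraries. From low to high it was 0.538% ± 0.445 (SD, n = 12) in Pvalb, 0.887% ± 0.165 in Reln, 1.24% ± 0.406 in Gad1, 1.45% ± 1.37 in Gad2, 1.71% ± 0.931 in Slc32a1, 1.93% ± 0.641 in Npy, 2.05% ± 1.46 in Sst, 2.44% ± 1.28 in Calb2 and 11.4% ± 5.88 in Vip. Ranges over animals overlapped for every pair of neighbours in this order. From Reln to Calb2 each neighbour was the higher in only 5 to 9 animals, so these steps did not exceed the spread. Reln was above Pvalb in 11 animals, and Vip above Calb2 in all 12. The numbers of sites differ, from 188 in Reln to 4 in Vip, and so does the precision. The Pvalb level rests on 12 sites at its inner start alone. The site at its outer start, at 71.9%, was not covered in all 12 libraries and is left out. The Sst level rests on 6 sites in coding sequence.

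**Figure D3:**
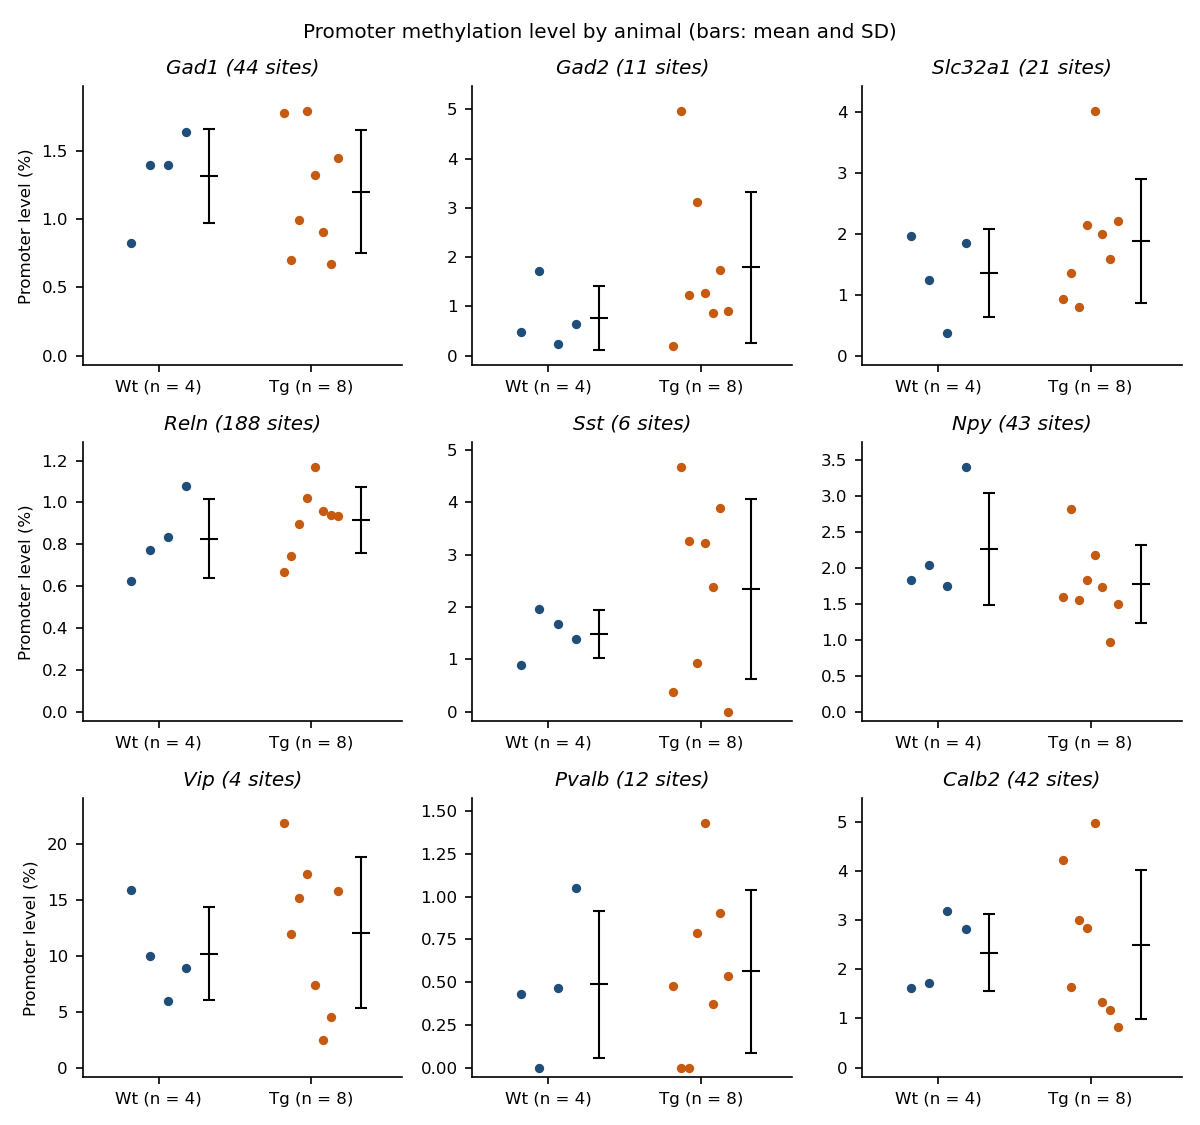
Promoter methylation level in percent of each animal, for the 9 genes, with a scale for each gene. Blue points are the 4 Wt and orange points the 8 Tg animals, and bars give the mean and SD. Wt and Tg points overlap in each gene.

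Whether Tg and Wt animals differed in these genes was asked first for whole genes. The level of a window (gene and 2000 bp upstream), a promoter or a body (beyond 1000 bp of every start) was the mean over its sites covered in all libraries. Levels were compared on a logit scale by limma with sex as covariate, and p-values were adjusted over all genes with the Benjamini-Hochberg method. A gene was called at an adjusted p under 0.1. None of 8 member windows, 9 promoters or 5 bodies that could be measured was called. In the genome 0 of 17836 windows, 0 of 16335 promoters and 0 of 8983 bodies were called, which is 0% each. At an unadjusted p under 0.05 no member window or promoter passed either, against 4.46% of all windows and 4.98% of all promoters.

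The windows of the enzyme and transporter genes differed between genotypes by less than the spread between animals. The Gad1 window (70 sites) was at 3.86%, 4.86% and 3.99% in Wt females 1 to 3 and 3.28% in the library labelled Wt male. Tg animals ran from 2.99% to 6.01% with a median of 3.45%. The groups overlapped, and the means were 3.998% ± 0.653 for Wt (SD, n = 4) against 3.71% ± 0.987 for Tg (SD, n = 8). The Gad2 window (70 sites) had means of 2.02% ± 0.512 in Wt and 2.28% ± 0.582 in Tg, and that of Slc32a1 (55 sites) 2.34% ± 0.620 and 2.45% ± 0.784. For these 3 genes the two-sided exact permutation p over all divisions of the animals into 4 and 8 was 0.673, 0.432 and 0.794.

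Npy and Reln had the smallest permutation p-values of the members. The Npy window (50 sites) was at 6.57%, 7.96% and 6.60% in Wt females 1 to 3 and 6.46% in the library labelled Wt male, and ran from 5.03% to 7.09% with a median of 5.71% in Tg. Of the 8 Tg animals 6 were below all Wt animals, yet the groups overlapped. The means were 6.90% ± 0.707 (SD, n = 4) and 5.94% ± 0.738 (SD, n = 8), a difference of -0.960 points (exact permutation p = 0.0586, limma adjusted p = 0.998). Without Wt female 2, the highest animal, it was -0.608 points. Requiring 20 reads turned the difference to 0.454 points, so that its direction depended on the sites kept. The Reln window (193 sites) was at 1.89%, 1.68% and 2.30% in Wt females 1 to 3, 1.71% in the library labelled Wt male, and 1.89% to 2.72% with a median of 2.22% in Tg. The means were 1.90% ± 0.287 (SD, n = 4) and 2.22% ± 0.278 (SD, n = 8), a difference of 0.322 points (exact permutation p = 0.0929, limma adjusted p = 0.998). Of its sites 188 are promoter sites, and their level differed by 0.0890 points. The body rested on 5 intron sites, at 42.1% ± 8.08 for Wt (SD, n = 4) against 51.1% ± 9.03 for Tg (SD, n = 8) (exact permutation p = 0.137).

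In the other genes the spread between Tg animals was wide. The Sst window (6 sites) was at 0.883%, 1.67% and 1.38% in Wt females 1 to 3, 1.96% in the library labelled Wt male, and from 0% to 4.68% with a median of 2.80% in Tg. Tg animals lay on either side of all Wt animals, and the difference of 0.864 points was within their spread (exact permutation p = 0.345). The Pvalb window (14 sites) had means of 3.50% ± 0.769 (SD, n = 4) and 4.86% ± 2.10 (SD, n = 8) (exact permutation p = 0.257), and its 12 promoter sites 0.486% ± 0.433 and 0.563% ± 0.478. The Calb2 window, made of 42 promoter sites, had 2.33% ± 0.784 and 2.50% ± 1.52 (exact permutation p = 0.863). Vip had too few sites for a window. Its promoter was at 15.9%, 5.93% and 8.93% in Wt females 1 to 3, 10.02% in the library labelled Wt male, and 2.50% to 21.9% with a median of 13.5% in Tg, with means of 10.2% ± 4.16 (SD, n = 4) and 12.1% ± 6.74 (SD, n = 8) (exact permutation p = 0.616). The 4 sites of Vip leave this the least certain value of the 9.

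Single sites were then compared by the rule of a differentially methylated site (DMS), an adjusted p under 0.1 and a read-weighted difference of at least 10 points. A binomial model with genotype and sex counts every read as an independent draw. It called 7 of the 504 member sites (1.39%), against 1.72% of all 980547 sites. These shares were not matched for methylation level, and shares by level are given below. Of the 7, 4 were higher in Tg, where the background was 0.928%, and 3 were lower, where it was 0.794%. A model that lets animals vary (an F test with a dispersion for each site) called 0 member sites, as it did 0% of all sites. At an unadjusted p under 0.05 that model had 51 of 504 member sites, or 10.1%, against 10.9% in all. On logit levels limma also called 0 member sites and 0% of all, with 33 member sites (6.55%) and 5.68% of all at an unadjusted p under 0.05. The binomial count fell to 4 without the library labelled Wt male (1.35% of all sites), of which 2 were among the 7, and rose to 11 without Wt female 3 (1.98% of all). Without the library labelled Wt male, no Wt animal was labelled male. With sex as a term, the binomial p-value of genotype then came from the libraries labelled female alone, while the difference took in the Tg males. The binomial count was 0 when all counts were halved, where 0.137% of all sites were called. That step was chosen after seeing the data, because 91.4% of methylated counts from 1 to 10 at member sites were even, as were 88.2% in the genome.

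The member DMS lay where methylation was intermediate, which the DMS rule largely fixed beforehand. A site with a pooled level under 5% can hardly reach the least difference that the rule asks for. Of 459 member sites with a pooled level under 5%, 0 were DMS, against 0.0121% of all such sites. From 5% to 20% it was 3 of 34, against 7.72%, and from 20% to 80% it was 4 of 11, against 20.5%. With so few member sites at these levels, the shares cannot say whether DMS were more or less frequent in these genes. None of the 7 was within 1000 bp of a start. Most member sites there were below 5%, so the rule could hardly call them. The lack of DMS near starts is therefore no sign that promoters were spared. All 7 DMS were in introns, in coding sequence or upstream, in Gad1, Reln, Npy and Pvalb. Below, the bases around 5 of them are shown 5′ to 3′ on the strand measured, with the CpG in capitals.

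Gad1, intron, plus strand, chr2:70568501-70568530: cttcagtgtttggcCGtgcagcaccctcct

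Reln, intron, plus strand, chr5:22128872-22128901: acaattctccaggtCGtcttgccggctttt

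Reln, intron, minus strand, chr5:22128880-22128909: gttctgttaaaagcCGgcaagacgacctgg

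Npy, coding sequence, minus strand, chr6:49823740-49823769: gattgatgtagtgtCGcagagcggagtagt

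Pvalb, intron, minus strand, chr15:78195739-78195768: acttccgctagctcCGgccttatgctgcac

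In Gad1, the intron site chr2:70568515, 5616 bp downstream of a start, was at 11.8%, 23.3% and 20.8% in Wt females 1 to 3 and 27.8% in the library labelled Wt male. In Tg animals it ran from 0% to 18.9% with a median of 4.38%. All but 2 Tg animals lay below the lowest Wt animal. The means were 20.9% ± 6.74 (SD, n = 4) and 5.99% ± 6.56 (SD, n = 8) over 20 to 85 reads a library (binomial adjusted p = 0.00122, dispersion model adjusted p = 0.451). On the other strand of this CpG, covered in 11 libraries, the animal means were 20.3% in Wt and 6.91% in Tg. That Wt mean holds 63.6% in Wt female 2, from 11 reads, beside 0% to 12.3% in the other Wt animals, and by reads the difference was -2.60 points. The site chr2:70559881, upstream of the annotated starts, had means of 23.3% ± 16.6 and 11.4% ± 8.96, with 0% in Wt female 2 and 38.5% in Wt female 1.

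In Reln, both DMS lay close together in the intron group with intermediate levels, and their printed stretches overlap. The site chr5:22128886 was at 66.7%, 41.7% and 41.9% in Wt females 1 to 3, 50% in the library labelled Wt male, and 37.5% to 100% with a median of 64.5% in Tg. Its means were 50.1% ± 11.7 (SD, n = 4) and 62.3% ± 21.0 (SD, n = 8) (binomial adjusted p = 0.0847, dispersion model adjusted p = 0.566), with groups that overlapped widely. Its own CpG on the other strand differed by 2.21 points by reads, with animal means of 48.8% in Wt and 54.9% in Tg. At chr5:22128895 the means were 29.3% ± 24.5 and 46.6% ± 18.4 (dispersion model adjusted p = 0.670).

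In Npy, the 2 DMS lay close together and went in opposite directions. The coding site chr6:49823755 was at 25%, 50% and 37.5% in Wt females 1 to 3, 22.2% in the library labelled Wt male, and 33.3% to 66.7% with a median of 45.9% in Tg. Its means were 33.7% ± 12.7 (SD, n = 4) and 47.9% ± 9.76 (SD, n = 8), which is 17.9 points by reads (binomial adjusted p = 0.0145, dispersion model adjusted p = 0.451). Its other strand, in fewer libraries, differed by -0.548 points by reads, with animal means of 50.5% in Wt and 44.5% in Tg. The intron site chr6:49823817 had 24.1% ± 8.61 and 11.6% ± 8.18 (binomial adjusted p = 0.0676). In Pvalb, the intron site chr15:78195754 was at 15.4%, 15.4% and 23.8% in Wt females 1 to 3, 12.2% in the library labelled Wt male, and 13.3% to 66.7% with a median of 27.0% in Tg, with means of 16.7% ± 4.96 and 32.4% ± 18.01 (binomial adjusted p = 0.0125, dispersion model adjusted p = 0.538). Of the 7 DMS, this site and that of Gad1 in its intron were also called without the library labelled Wt male. Their binomial adjusted p-values were then 0.0993 and 0.0501. In the 7 libraries labelled female 1 of the 7 was kept, the Pvalb site, while the Gad1 difference there was -9.90 points.

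**Figure D4:**
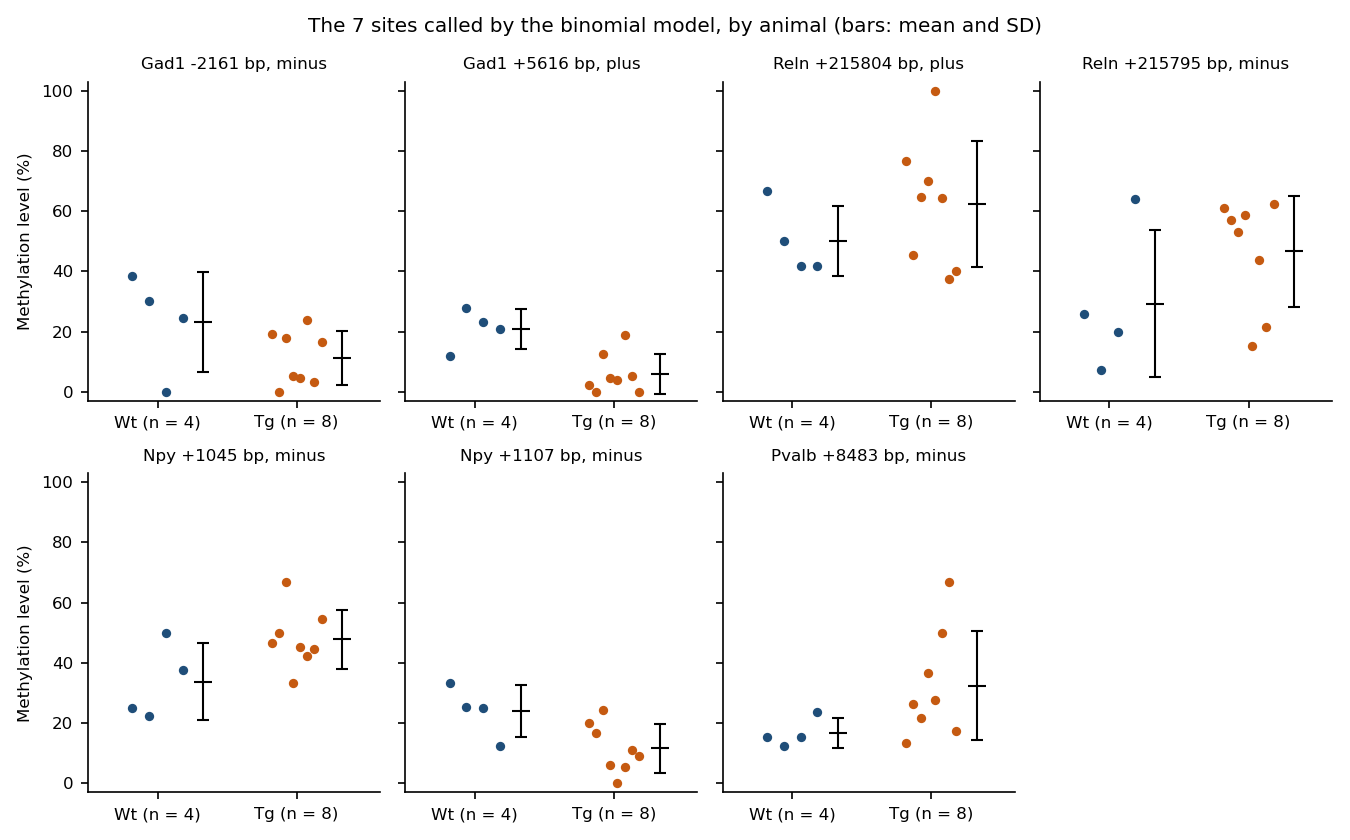
Methylation level in percent of each animal at the 7 member sites called by the binomial model, named by gene, distance in bp from the nearest start, and strand. Blue points are the 4 Wt and orange points the 8 Tg animals, and bars give the mean and SD. The 2 groups overlap at each site.

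In the 5 genes without a DMS, the site with the largest read-weighted difference was examined. In Calb2 this was chr8:110168225, 15 bp upstream of a start, which was at 3.28%, 0% and 6.35% in Wt females 1 to 3, 8% in the library labelled Wt male and 0% in all Tg animals. If taken as independent, the 403 Tg reads allow a level of up to 0.744%, and the difference was -5.00 points (dispersion model adjusted p = 0.422). Wt female 2 was also at 0%, so that the groups touched. In Sst the coding site chr16:23890650 showed the reverse, with 0% in all Wt animals, whose 313 reads allow up to 0.958%, and 0% to 6.45% in Tg (dispersion model adjusted p = 0.450). The other strand of this CpG went the opposite way, with means of 3.26% in Wt and 1.22% in Tg. The differences were -6.75 points at chr2:22621109 in Gad2, -5.69 points at chr2:158615528 in Slc32a1 and 4.79 points at chr10:5639329 in Vip (dispersion model adjusted p from 0.547 to 1). The Slc32a1 site was at 15.2% in Wt female 2 and at 0% to 5.56% in the other Wt animals. On the other strand the difference by reads was 1.28 points in Slc32a1 and -0.193 in Vip, both of opposite sign. In Calb2 it was -2.13 points, of the same sign. Without the library labelled Wt male the Gad2 site differed by -11.4 points and was called by the binomial model (adjusted p = 0.00900), so that Gad2 then had a DMS. That p-value rests on the libraries labelled female, in which the difference was -14.1 points.

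No member site among the 504 had Wt and Tg ranges that did not overlap, against 0.0709% of all sites. Allowing sites in at least 6 libraries (with 2 or more Wt and 3 or more Tg) gave 945 member sites. Of these 28 were binomial DMS, or 2.96%, against 5.84% in all, and the dispersion model again called 0, against 0% in all. There 5 had ranges apart, against 0.819% in all. They were chr2:70560971 and chr2:70565229 in Gad1, chr2:158613974 in Slc32a1, and chr5:21976315 and chr5:22206453 in Reln. At the Reln sites, the coding one was at 100% in both Wt animals and at 70% to 89.5% in 6 Tg animals, and the intron one at 62.5% and 71.4% in Wt and 85.7% to 100% in 5 Tg animals. The 2 differences had opposite signs. At the Gad1 and Slc32a1 sites, Tg was the lower. The dispersion model gave adjusted p-values from 0.597 to 0.659 for the 3 genes.

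Related genes were compared at the window level. Of 20 transcription factors of the GABAergic lineage, 0 of 20 were called, 0 were higher and 1 lower at an unadjusted p under 0.05. Their median difference was -0.0688 points, against 0.0398 over all genes. The lower one was Dlx1, at -1.12 points, and Dlx5 differed by 1.31 points. Of 7 genes of GABA synthesis, uptake and breakdown, 0 were called, with a median difference of -0.166 points. The largest differences were 1.93 points in Slc6a13, -1.16 in Aldh5a1 and 0.985 in Slc6a11. Of 17 measured markers of interneuron subtypes, 0 were called and 2 were higher at an unadjusted p under 0.05, with a median of 0.181 points. Of all windows 4.46% had such a p in either direction. The largest differences were 2.97 points in Tac2, -2.21 in Pnoc and 1.94 in Cck, none of which had a p under 0.05. The reelin receptors Vldlr and Lrp8 and their adaptor Dab1 differed by -0.293, 0.191 and 0.558 points (0 of 3 called). The members themselves had a median of 0.217 points over 8 windows.

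Markers of the other cells in the tissue give the setting of these values. Of 8 excitatory neuron, 4 astrocyte and 1 microglia windows, 0 were called or had an unadjusted p under 0.05, with medians of 0.167, 0.516 and 0.0585 points. Of 6 oligodendrocyte windows 0 were called, 5 were lower in Tg and the median was -0.883 points, and Olig1 (2.48% ± 1.93 in Wt, 0.577% ± 0.127 in Tg) had an unadjusted p of 0.00185 and an adjusted p of 0.998. The part of cell makeup in the member levels was not tested.

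The Reln window, which rests on the most sites, varied over the 12 animals most like the windows of Hey2 (Pearson's r = 0.896), Rtn4rl2 (0.876) and Mdm2 (0.843), among 17835 others compared. All are windows with a level under 4%, and the animals' libraries are shared, so these values are a description only.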

How the data were processed

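RRBS libraries from the brains of 4 Wt and 8 Tg mice were analysed. According to the labels and the study's methods, a commercial service made paired-end libraries, aligned them to mm10 and called methylation with Bismark, and the authors read the calls into methylKit, with strands kept apart and no pooling; versions are not given in the sources used here. The deposited values are read counts per CpG cytosine (coverage, methylated, unmethylated), and every row had at least 10 reads.

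Sites on the 19 autosomes and X were joined over the libraries (Python, numpy, pandas), leaving out 11 positions listed more than once. Site models were a logistic regression with genotype and sex as terms (likelihood-ratio test), and the same deviance divided by a dispersion of at least 1 with an F test. Gene levels needed 5 sites in a window or 3 in a promoter or body. They were tested with limma 3.58.1 on log2((level + 1)/(100 - level + 1)), and single values with exact permutation tests. Patches of sites were split at gaps over 300 bp. Median depth at member sites was 23 to 70 reads. A level of 0 in 20 reads allows up to 15% (3 counts), and such limits cover counting error only. They take each read as independent, so reads counted more than once would raise them. Replicates are separate animals by the labels. Sites in the text were the dispersion-model DMS of each gene, otherwise its binomial DMS with the smallest dispersion-model p (the other DMS were added after their values were seen), otherwise the site with the largest difference, and every site with ranges apart. The members and gene lists were chosen with earlier results of these data known. The values of 1 gene of these lists are not reported here.

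Simulations on 20000 real sites, of which 200 were shifted by about 30 points, were run first. With animals varying, the binomial model called 199 shifted and 213 unshifted sites, and the dispersion model 158 and 3. Smaller shifts, such as the differences of the member DMS, and adjustment over all sites of the genome were not simulated. Alternatives changed the site set, read minimum, covariate, strands, threshold, offset, promoter size and animals.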

Additional observations from a re-analysis of the deposited data

Results flagged for a closer look

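In 44 groups of animals (the Wt or the Tg animals of a gene's window, promoter or body level), the highest and lowest animal were compared with the rest by Dixon's criterion at 95%. It marks about 1 in 20 groups by chance, or about 2.2 here, and marked 5. The Gad1 window level of Tg female 2 was 6.01%, against 2.99% to 4.06% in the other Tg animals, and its Gad1 body level was 14.6%, against 5.82% to 8.47%. The body sites are part of the window, so that these values overlap. The Npy window level of Wt female 2 was 7.96%, against 6.46% to 6.60% in the other Wt animals. The Pvalb window level of Wt female 3 was 4.64%, against 2.98% to 3.25%. The Slc32a1 promoter level of Tg male 4 was 4.03%, against 0.807% to 2.21% in the other Tg animals. Whether the effect of genotype differed between the sexes was not tested, since the only Wt library labelled male went against its label.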

How the results depend on the processing

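No paired analysis was possible because the replicate numbers only follow the order of the records. The 7 binomial DMS of the members became 28 of 945 sites with at least 6 libraries, 1 of 266 with 20 reads (0.475% of all sites), 3 in the 7 libraries labelled female (2.13% of all), 4 of 333 with strands summed (2.11%), 0 at 25 points (0.0775%) and 0 with counts halved (0.137%; chosen after seeing the data). They numbered 4 to 11 when single animals were left out, with 4 without the library labelled Wt male and 11 without Wt female 3. The binomial p-values without the library labelled Wt male are those of the 7 libraries labelled female, so these are not separate checks. The dispersion model called 0 under each of the settings named. Member sites with ranges apart numbered 0 with 20 reads and 0 to 3 when an animal was left out, with 3 without Wt female 1, Wt female 2 or Wt female 3, where the share of all sites also rose, from 0.0709% to 0.282%, 0.293% and 0.246%. No window, promoter or body level of a member was called under any alternative (smallest adjusted p 0.808). Of 368 alternative values of the 22 gene levels, 331 kept the direction and 37 turned it, and the cause was not tested. In the females alone, the difference in points turned to 0.00646 in Gad1, -0.113 in Gad2, -0.245 in Slc32a1 and -0.652 in Calb2 (windows; the Calb2 promoter has the same sites), -0.0759 in the Pvalb promoter, 0.165 in the Gad1 body and -0.223 in the Gad2 body. With each library's own covered sites, so that libraries average different CpGs, it turned to -0.665 in Gad2, -0.480 in Slc32a1, -1.56 in Reln, -0.0648 in Sst, -2.0 in Pvalb and -1.74 in Calb2. With 20 reads it turned to -0.177 in Gad2 and 0.454 in Npy, with reads summed to -0.0383 in Calb2 and -0.138 in the Gad2 body, and beyond 500 bp to 0.0606 in the Slc32a1 body. Leaving out an animal gave ranges of -0.0785 to 0.404 for the Slc32a1 window, -0.190 to 0.446 for Calb2, -0.0846 to 0.266 for the Pvalb promoter, -1.54 to 0.146, -0.0662 to 0.374 and -0.392 to 0.232 for the Gad1, Gad2 and Slc32a1 bodies. Depth limited single sites: at 10 reads a level moves in steps of 10 points.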
